A study of Homo sapiens with 2 samples.

Results

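L1MA and L1MB elements are old mammalian L1 retrotransposons, and mTOR ChIP-seq peaks centred on them were described in MDA-MB-231 cells. This established cell line comes from a human breast cancer of the triple-negative type and was grown with serum. Peaks were chosen by the repeat name deposited for the peak centre, of family L1 and starting with L1MA or L1MB, which gave 1108 of 21440 peaks. The mTOR sample is 1 library of cross-linked chromatin enriched with an antibody against mTOR, the kinase that couples nutrients to cell growth. It was set against 1 input library of the same cells when peaks were called, and no value of the input is in the peak list. Neither library has a replicate, so no difference could be tested over samples, and peaks are not replicates. The intervals below are 95% intervals that cover counting error only, and the depth of the library is unknown. The deposited peak score, a whole number on a scale that is not stated, is the authors' own value and serves only to rank and describe peaks.

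L1 elements copied themselves by reverse transcription of their RNA, and each wave of copying left a subfamily that RepeatMasker names by sequence. L1HS and the L1PA names are the youngest in human, other L1P names are older primate elements, L1MA and L1MB spread earlier in mammals, and L1MC, L1MD, L1ME and HAL1 are older still. Within L1MA and L1MB a higher number generally marks an older subfamily. The human copies are immobile and mostly truncated and diverged, and many lie within introns, where L1 sequence is a common component. Some L1 chromatin is a target of silencing by the HUSH complex and KRAB zinc finger proteins, which was not examined for these peaks.

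L1MA and L1MB peaks made up 5.17% of all peaks (exact Clopper-Pearson interval 4.88 to 5.47%) and 15.1% of the 7337 L1 peaks (14.3 to 15.9%). L1MB held 546 peaks and L1MA held 562. They covered 497.6 kb in all. How much of the genome each subfamily occupies was not used here, so the counts say nothing on enrichment over the number of copies. The sequences under the peaks were not analysed here, and the repeat names are used as deposited.

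Peaks carried 19 subfamily names, 12 of L1MA and 7 of L1MB. L1MB7 had the most with 168 peaks, or 15.2% of the 1108 peaks, and L1MA9 followed with 101. L1MB3 and L1MB5 had 94 each. The fewest were in L1MA10 with 14 and L1MA1, the youngest name, with 20. Counts therefore did not follow the subfamily numbers in either series.

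**Figure D1:**
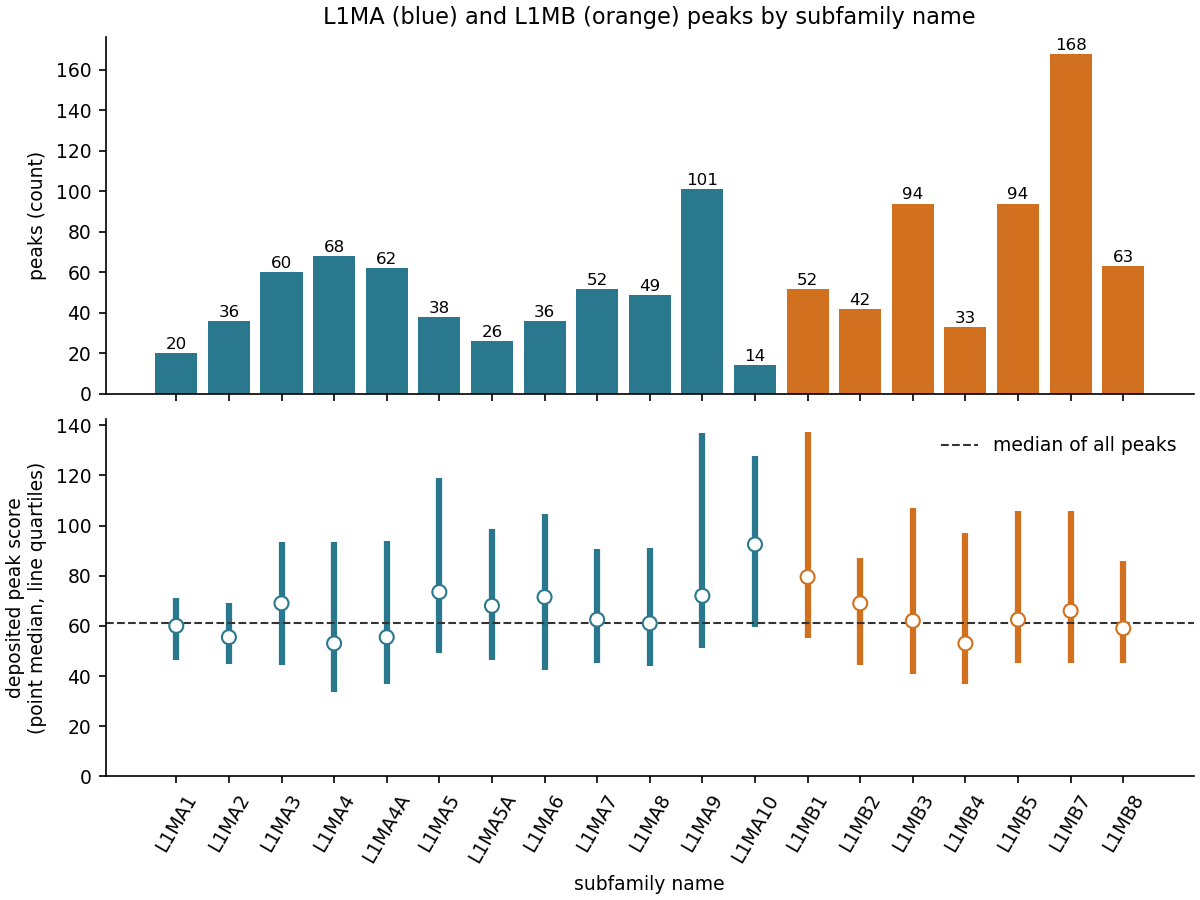
The upper panel gives the number of peaks for each L1MA (blue) and L1MB (orange) subfamily name, and the lower panel the median deposited score with its quartiles, beside the median of 61 over all peaks (dashed). L1MB7 has 168 peaks, and the score quartiles of the subfamilies overlap.

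Scores of L1MA and L1MB peaks ran from 14 to 1311 with a median of 65 (interval 61 to 69), against 56 for the other L1 peaks (56 to 59) and 61 for all peaks (59 to 61). A score of 61 or more was reached by 627 of the 1108 peaks, or 56.6%, against 47.3% of the other L1 peaks, where 50% of all peaks reach it. The difference from the other L1 peaks was 9.25 percentage points (Newcombe interval 6.06 to 12.4). A score of 200 or more was reached by 82 peaks, 7.40% (5.93 to 9.10%), against 6.95% of the other L1 peaks and 10.0% of all peaks. Here the difference from the other L1 peaks was 0.45 points (-1.10 to 2.25). The L1MA and L1MB peaks thus lay higher than other L1 peaks around the middle of the score range and could not be told apart from them at its upper end.

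The other L1 peaks are a mixture of ages, and the older primate and the oldest named groups differed from L1MA and L1MB in opposite directions. Peaks scoring 200 or more made up 0.96% of the 2916 peaks in L1HS to L1PA8 and 3.47% of the 980 peaks in older primate L1P names. Their share was 6.94% in L1MA, 7.88% in L1MB and 16.4% of the 1526 peaks in L1MC, L1MD, L1ME and HAL1. Median scores in the same order were 51, 54, 64.5, 66 and 74.5, and median widths were 335, 347, 366.5, 396.5 and 450 bp. The share for L1MA and L1MB together was 3.93 points above that of older primate L1P (1.99 to 5.89) and 8.98 points below that of the oldest group (-11.4 to -6.53). A further 807 peaks, with names such as L1M4 and L1M2 that stand in none of these groups, had 121 at 200 or more, a share with an interval of 12.6 to 17.6%.

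**Figure D2:**
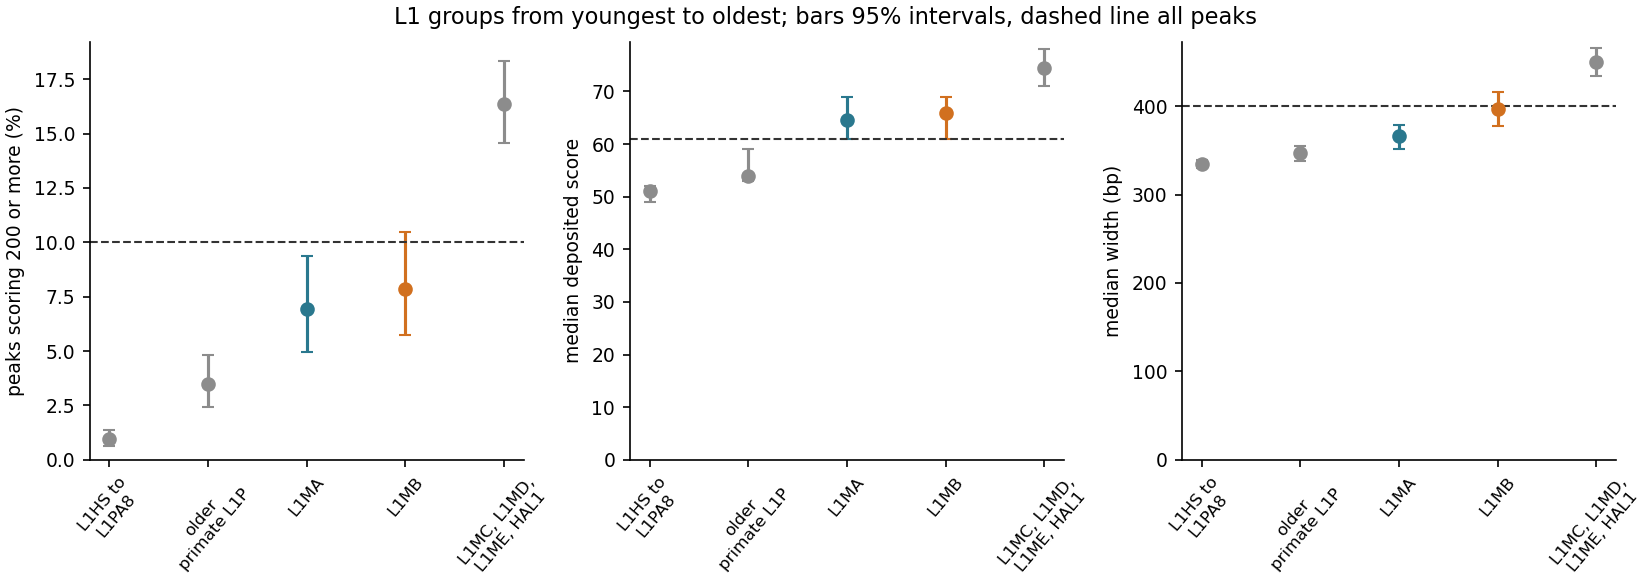
From left to right, the panels give the share of peaks scoring 200 or more, the median deposited score and the median width in bp for 5 L1 groups from youngest to oldest, with 95% intervals and the value over all peaks (dashed). L1MA (blue) and L1MB (orange) lie between the primate groups and the oldest group in each panel.

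Subfamilies overlapped in the quartiles of their scores, although some median scores differed beyond their intervals. Median scores ran from 53 in L1MA4 and L1MB4 to 92.5 in the 14 peaks of L1MA10. L1MB1, with 52 peaks, had a median of 79.5 (69 to 106) and an upper quartile of 137, while L1MA2 had 55.5 (45 to 66) and 69. A score of 61 or more was reached by 49.6% in L1MA1 to L1MA4A, 59.2% in L1MA5 to L1MA7 and 62.8% in L1MA8 to L1MA10. In L1MB1 to L1MB4 it was reached by 59.7% and in L1MB5 to L1MB8 by 55.4%. L1MA9 had 13 of 101 peaks at 200 or more and L1MB7 had 14 of 168. L1MA1 had 0 of 20, and its highest score was 123, for a peak 106901 bp from the start of CARTPT. L1MA5A peaks were the widest, with a median of 528 bp over 26 peaks, and L1MA2 peaks the narrowest with 303 bp over 36.

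Widths of L1MA and L1MB peaks ran from 248 to 2990 bp with a median of 378 bp (368 to 394), against 363 bp for the other L1 peaks and 400 bp for all peaks. Wider peaks had higher scores. The rank correlation of width and score was 0.57 over 1108 peaks, and it was 0.54 both in the other L1 peaks and in all peaks. All of these share 1 library. None of the 277 narrowest peaks and none of the next 277 scored 200 or more, and 71 of the 277 widest did. Only 31 peaks were 1 kb or wider, of which 18 scored 200 or more.

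The highest-scoring peak was an L1MA4 element in intergenic sequence on chromosome 5 (98349633 to 98350525), with a score of 1311 and rank 40 among all peaks. Its nearest annotated start, that of the long non-coding RNA gene LINC01846, lay 188840 bp away. A second L1MA4 peak scored 942 on chromosome 1 (29378691 to 29379954), 29208 bp upstream of LINC01756. An L1MB8 peak on chromosome 14 (54094332 to 54095506) scored 879 and lay 138028 bp upstream of BMP4, which encodes a bone morphogenetic protein. These 3 led the 15 top peaks, of which 9 were intergenic and 6 intronic, with widths from 617 to 1620 bp.

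Introns of SNED1, CDKL3 and COL21A1 held the strongest intronic peaks. SNED1, which encodes an extracellular matrix protein, had an L1MA9 peak of score 699 in intron 1 (chromosome 2, 241025119 to 241026738). CDKL3, a gene for a kinase related to cyclin-dependent kinases, had an L1MB8 peak of 641 in intron 1 (chromosome 5, 134328082 to 134329272). COL21A1, a collagen gene, had an L1MB1 peak of 552 in intron 3 (chromosome 6, 56171982 to 56172656). PHTF2 with 427, the metalloprotease gene ADAMTS6 with 387 and the histamine H1 receptor gene HRH1 with 379 completed the 6.

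The remaining top peaks were intergenic. Those nearest to non-coding genes were both on chromosome 7. An L1MA9 peak of 649 lay 19810 bp from the start of LOC401312, and an L1MB5 peak of 524 lay 266841 bp from that of LOC730338. An L1MB8 peak of 482 lay 31794 bp upstream of the olfactory receptor gene OR5B12, and an L1MA4 peak of 467 lay 106452 bp upstream of SH3RF1, a scaffold gene of stress kinase signalling. An L1MB7 peak of score 400 lay 32270 bp upstream of PDGFB, a subunit of platelet-derived growth factor, and an L1MA8 peak of the same score lay near the pseudogene B3GNT10. L1MB and L1MA supplied 7 and 8 of the 15.

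Apart from L1MA1, with its highest score of 123, the top peaks of the other subfamilies had scores from 207 to 346. They were an L1MA4A peak of 346 in an intron of MAP4K3-DT, an L1MB4 peak of 334 near LINC01572, and an L1MA2 peak of 321 upstream of SRI, the gene of the calcium-binding protein sorcin. An L1MB3 peak of 319 lay upstream of LDLRAD4, and an L1MA5 peak of 296 in intron 2 of HSD17B4, which encodes a peroxisomal enzyme of fatty acid oxidation. L1MA7 led with 285 upstream of APP, the amyloid precursor gene, L1MB2 with 237 upstream of BTBD16, and L1MA3 with 237 in intron 1 of SCHIP1. L1MA6 had 210 near FRG1HP, and L1MA10 had 207 at 118224 bp upstream of LGR5, a stem cell receptor gene.

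The widest peak, 2990 bp over an L1MB3 element 159780 bp from the start of CRLF2, scored only 181 (chromosome X, 1051375 to 1054364). Next were an L1MA5 peak of 1938 bp near SCART1 with a score of 224 and an L1MB7 peak of 1668 bp upstream of TEAD1, a Hippo pathway transcription factor gene, with 136. The SNED1 peak followed with 1620 bp. An L1MA9 peak of 1441 bp in intron 11 of SORT1, the sortilin gene, scored 137 and was assigned to MYBPHL as nearest gene. Width alone did not place a peak among the strongest.

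Of the 1108 peaks, 563 lay in introns, or 50.8% (47.8 to 53.8%), and the other 545 were intergenic. The deposited annotation gives a repeat name only to peaks in these 2 classes: all 13813 peaks with a repeat name were intronic or intergenic, and 0 of the 2797 promoter peaks had one. Promoter and exon peaks over L1 sequence, if any, were therefore outside the selection. Among the other L1 peaks the intronic share was 48.0%, a difference of 2.76 points that did not exceed counting error (-0.43 to 5.95). Among intronic and intergenic peaks without a repeat name it was 54.3%, and among peaks with names of other repeats 39.9%. Over all intronic and intergenic peaks it was 46.5% (45.7 to 47.2%). Median scores were 64 in introns and 66 in intergenic sequence, so the 2 settings were alike in score.

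L1MB peaks lay within genes more often than L1MA peaks. The intronic share was 54.9% in L1MB (50.7 to 59.2%) and 46.8% in L1MA (42.6 to 51.0%), a difference of 8.15 points (Newcombe interval 2.26 to 14.0). In L1MB it was above 50% for 6 of 7 names, with 95 of 168 peaks in L1MB7 and 21 of 33 in L1MB4, and below it only for L1MB1 with 24 of 52. In L1MA it was above 50% for 5 of 12 names, among them L1MA5A with 16 of 26, while L1MA8 had 17 of 49 and L1MA10 had 4 of 14. Genomic copy numbers of the subfamilies inside and outside genes were not used here. Among the 82 peaks scoring 200 or more the difference was 0.36 points (-20.4 to 21.0), too imprecise to show a direction.

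Taken as a whole, L1MB peaks also lay closer to start sites, though not in each of their subfamilies. Their median distance was 31.9 kb (27.5 to 34.7), against 48.6 kb in L1MA (43.1 to 55.9). More than 50 kb from any start lay 33.7% of L1MB peaks and 48.6% of L1MA peaks, a difference of -14.9 points (-20.5 to -9.10). Within 5 kb of a start lay 8.61% and 4.63%, which was 3.98 points more in L1MB (1.06 to 7.0). Among peaks scoring 61 or more this last difference was 3.25 points (-0.54 to 7.17), and among those scoring 200 or more it turned to -0.24 (-11.0 to 9.72). The same order held inside introns, with medians of 27.0 and 41.7 kb, and in intergenic sequence, with 36.1 and 61.1 kb. L1MB5 to L1MB8 had the shortest distances of 5 blocks of consecutive subfamilies, with a median of 26.9 kb, and L1MA8 to L1MA10 the longest with 59.1 kb. L1MB1 to L1MB4 had a median of 41.6 kb (34.2 to 49.6) over 221 peaks and L1MA5 to L1MA7 had 39.5 kb (27.7 to 50.8), so these 2 blocks did not differ beyond their intervals. L1MB1 alone had 74.9 kb and 0 of 52 peaks within 5 kb, while L1MB7 had 21.5 kb and 24 of 168.

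**Figure D3:**
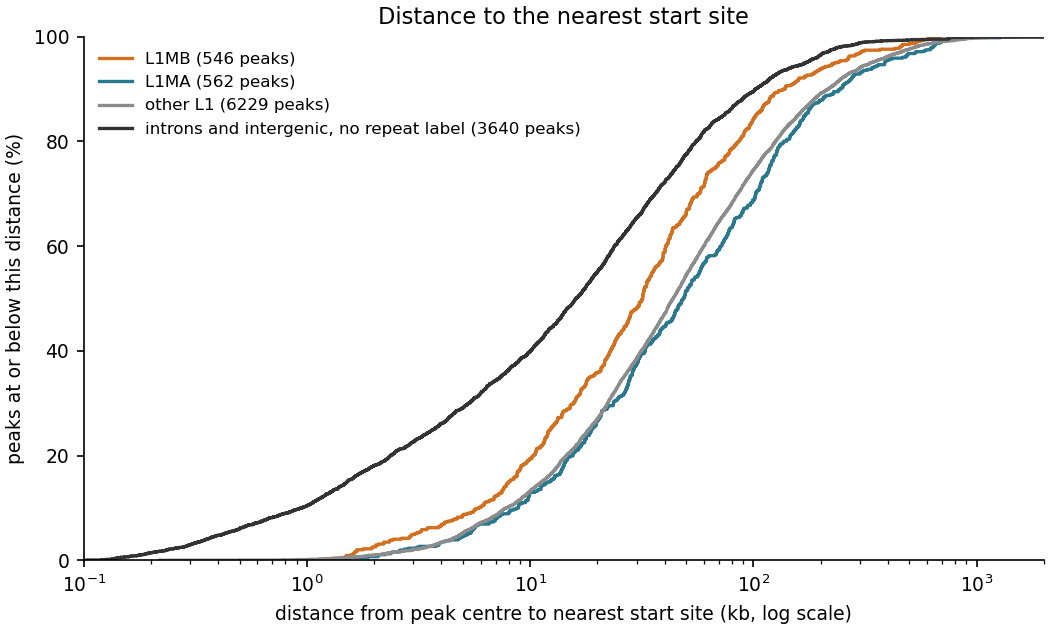
Each line gives the cumulative share of peaks (%) against the distance from peak centre to the nearest annotated start site (kb, log scale) for L1MB, L1MA, other L1 peaks, and intronic and intergenic peaks without a repeat name. The L1MB line lies to the left of the L1MA line, with medians of 31.9 and 48.6 kb.

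Over both series the median distance was 38.1 kb, against 43.7 kb for the other L1 peaks and 21.6 kb for all peaks. Over all intronic and intergenic peaks, the only classes that carry repeat names, it was 31.4 kb. No L1MA or L1MB peak had its centre within 1 kb of a start: 0 of 1108, which allows a share of up to 0.271% by the limit of 3 counts and 0.332% by the exact interval, against 9 of the 6229 other L1 peaks. This follows in part from the annotation, since peaks in the promoter class carry no repeat name. The closest peaks, picked after their values were seen, were an L1MB7 peak of score 59 at 1168 bp in intron 1 of SLCO2B1, an organic anion transporter gene, and an L1MA3 peak of 146 at 1249 bp in intron 1 of IL3RA, a cytokine receptor gene. They were followed by an L1MB2 peak of 85 in intron 18 of MED24, a Mediator subunit gene, at 1285 bp from MIR6884. Within 5 kb lay 73 peaks.

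Introns that held L1MA and L1MB peaks belonged to long genes, as did those that held intronic peaks in general. A transcript named in the annotation was matched to a gene for 557 of 563 intronic peaks, which fell in 483 genes. The median host gene length, counted per peak, was 151.7 kb (quartiles 79.4 and 300.6), against 160.4 kb for the other L1 peaks. Over all intronic peaks it was 121.3 kb (quartiles 50.8 and 256.8). For L1MB it was 129.5 kb and for L1MA 191.9 kb. The median protein-coding gene, counted per gene, spans 24.2 kb. The first intron held 179 peaks, 31.8% (28.0 to 35.8%), against 26.5% of the other intronic L1 peaks (24.9 to 28.1%) and 35.5% of all intronic peaks. Last introns were counted only where the transcript had several introns, as a share of all intronic peaks. They held 15 of 300 L1MB peaks (5.00%, 2.83 to 8.11%) and 31 of 263 L1MA peaks (11.8%, 8.15 to 16.3%). Over both series the share was 8.17% (6.04 to 10.7%), against 7.95% of the other intronic L1 peaks and 8.32% of all intronic peaks.

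In 187 of the 557 matched peaks, 33.6% (29.7 to 37.7%), the gene that held the peak was not the one deposited as nearest by start site. Of all 1108 peaks the nearest gene was protein-coding in 71.2% (68.4 to 73.9%), against 67.4% for the other L1 peaks. The share was 69.1% over all intronic and intergenic peaks and 72.3% over all peaks, both inside that interval. L1MB had 74.4% and L1MA 68.1%, a difference of 6.21 points (0.88 to 11.5). Without chromosome 19 this difference was 5.11 points with an interval of -0.42 to 10.6. Non-coding RNA genes were nearest in 25.8% of the 1108 peaks and pseudogenes in 2.53%, against 23.5% and 3.40% of all peaks.

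Together the peaks named 975 nearest genes, of which 869 were named by a single peak, 87 by 2, 14 by 3, 4 by 4 and 1 by 5. CEP112, which encodes a centrosomal protein and spans 556.6 kb, had the 5. They lay in its introns over L1MB7, L1MA4, L1MA8, L1MA8 and L1MA3 elements, in order along chromosome 17, with scores of 109, 50, 61, 73 and 53. NR2F1-AS1 had 4 among 28 peaks of all kinds, with scores of 189, 112, 85 and 37, and LOC101929268 had 4 among 5, with 147, 69, 61 and 53. Only the NR2F1-AS1 peak of 189 was intronic, and the others assigned to that gene lay 619241 to 696285 bp from its start. All those of LOC101929268 were intergenic, at 66776 to 240015 bp. The 4 peaks assigned to ZBED1, with scores of 106, 97, 69 and 61, all lay in introns of its neighbour DHRSX. These genes were named by peaks of middling score, and none of these L1MA and L1MB peaks reached 200.

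Genes of the mTOR pathway that lay nearest to an L1MA or L1MB peak included ULK1, RICTOR and TSC2. Of 19974 protein-coding genes 3.45% were the nearest gene of an L1MA or L1MB peak and 2.13% held one in an intron. Of 56 mTOR pathway genes 8 were the nearest gene of one (14.3%, 6.38 to 26.2%) and 5 held one in an intron. The list had a median gene length of 47.4 kb. In the length class of protein-coding genes with a median of 52.4 kb the nearest-gene share was 3.68%, and in the longest class, with 152.3 kb, it was 8.16%. For comparison, the nearest-gene shares for other L1 peaks were 12.5% of the list and 14.7% of all protein-coding genes. No test was made on this list, and nothing particular to it is drawn from these counts.

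Among these genes, ULK1, the kinase that starts autophagy and is restrained by mTORC1, had an L1MB3 peak of 196 in intergenic sequence 8745 bp upstream of its start (chromosome 12, 131885642 to 131886112). RICTOR, the defining subunit of mTORC2, had an L1MA4A peak of 84 at 15583 bp upstream. RRAGD, a Rag GTPase gene, had an L1MB7 peak of 77 in intron 1. Others, named after their values were seen, were the lipid kinase gene PIK3CB with 68 in intron 19, FNIP1, which encodes a folliculin partner, with 59 and 27, the GATOR2 gene SEH1L with 53 in intron 3, and TSC2, a brake on mTORC1, with 45 in intron 16. Both FNIP1 peaks lay in intron 11 of MEIKIN. RPTOR, the substrate-binding subunit of mTORC1, held an L1MB3 peak of 201 in intron 26 that was assigned to another gene (chromosome 17, 80946341 to 80947444). That peak and the ULK1 peak were the 2 strongest, and the rest scored below 100.

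Other lists had few such peaks. Of 23 RONIN and HCF-1 partner genes 0 were the nearest gene of one, a count that allows a share of up to 13.0% by the limit of 3 counts and 14.8% by the exact interval. Cytosolic ribosomal protein genes with their close copies had 2 of 86 (2.33%, 0.28 to 8.15%), RPLP1 with an L1MB7 peak of 90 at 27374 bp and RPL22L1 with an L1MA4A peak of 53 at 132166 bp. ZNF genes had 9 of 509 (1.77%, 0.81 to 3.33%), while 64.4% of them were the nearest gene of some peak. The strongest was an L1MB5 peak of 302 in intron 5 of ZNF557 (chromosome 19, 7077898 to 7078428), followed by ZNF778 with 94 and ZNF546 with 74.

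Of 41 genes that silence or restrict L1 elements 3 were the nearest gene of a peak: HELLS, a chromatin remodeller, with 88, the RNA-binding protein gene PTBP1 with 65 and APOBEC3C, a cytidine deaminase, with 45. The HELLS peak lay in an intron of TBC1D12. Senescence genes had 2 of 40, GADD45B and RB1. GADD45B, a stress response gene, was nearest to 2 L1MB peaks, of 166 at 33289 bp and 106 at 39133 bp. The first was intergenic, and the second lay in intron 4 of GNG7. RB1, the retinoblastoma gene, held an L1MA1 peak of 21 in intron 6. Basal and mesenchymal breast markers had 1 of 29. It was EGFR, the epidermal growth factor receptor gene, with L1MA peaks of 207 at 33703 bp and 109 at 87113 bp upstream. ZEB1, a regulator of the mesenchymal state, held an L1MA4A peak of 103 in intron 8 that was assigned elsewhere. Neuronal adhesion and synapse genes, with a median length of 1184 kb, had 4 of 44, led by ROBO1 with 106, CNTN5 with 78 and ROBO2 with 61. Intervals of all these lists include the 3.45% of all protein-coding genes, apart from ZNF genes, which lay below it. ZNF genes have a median length of 23.6 kb, and in the length class with a median of 24.2 kb the share was 2.18%, inside their interval.

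Neighbouring peaks carried the same subfamily name far more often when they were close. Of 52 pairs of adjacent L1MA or L1MB peaks with centres within 10 kb, 47 had the same name, 90.4% (79.0 to 96.8%). Between 10 and 50 kb it was 10 of 50, or 20%, and beyond 50 kb 92 of 983, or 9.36% (7.61 to 11.4%). All 12 pairs within 1 kb had the same name, and the peaks of such a pair were separated by 264 to 673 bp. Whether both peaks lie in a single inserted element was not analysed here, since the extent of the elements is not in the peak list. In all, 100 of the 1108 peaks had another within 10 kb, and 289 (26.1%) had a peak of any kind there, against 21.4% of the other L1 peaks. The latter share was higher over all intronic and intergenic peaks, at 30.5%, and over all peaks, at 31.5%.

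**Figure D4:**
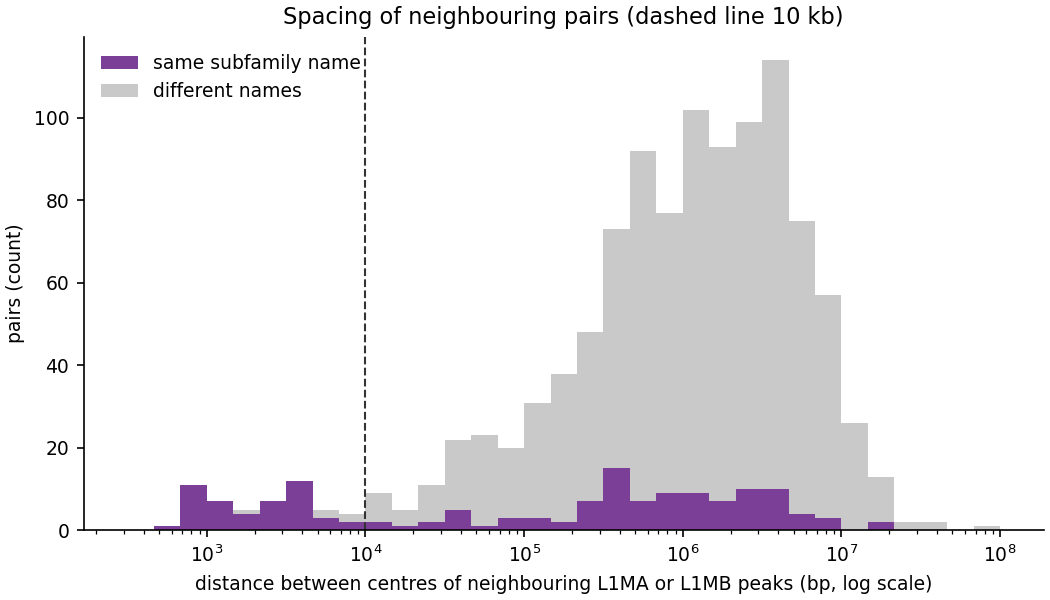
Neighbouring L1MA or L1MB peaks on the same chromosome are counted by the distance between their centres (bp, log scale), split into pairs with the same subfamily name (purple) and with different names (grey). Of the 52 pairs left of the dashed line at 10 kb, 47 share a name.

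The 5 closest pairs lay at DNAH14, an axonemal dynein gene, STAG1, a cohesin subunit gene, SELP, the P-selectin gene, GPAT3, a lipid synthesis gene, and MLLT10, a chromatin regulator gene. Their centres were 679, 745, 810, 835 and 852 bp apart, over L1MA4, L1MB3, L1MA8, L1MA5 and L1MA4A elements. Scores within a pair were 45 and 27 at DNAH14, 61 and 61 at STAG1, 126 and 45 at SELP, 97 and 23 at GPAT3, and 110 and 101 at MLLT10. Over the 52 pairs the median ratio of the higher to the lower score was 1.92, and in 12 pairs it was 3 or more. The most unequal pairs were picked after their values were seen. They were the L1MA4 peaks of 467 and 17 assigned to SH3RF1 and the L1MB8 peaks of 641 and 29 in CDKL3. Their centres were 3770 and 1015 bp apart. Of the 5 close pairs with different names, only the one at LEMD3 and MSRB3, L1MB1 beside L1MA5, joined the 2 series, and L1MA4A lay beside L1MA4 at DNAH14.

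Chromosome 19 had 1841 peaks, of which 52 or 2.82% (2.12 to 3.69%) were L1MA or L1MB, the lowest share of 23 chromosomes. Its L1 peaks numbered only 174, and of these the same 52 made up 29.9% (23.2 to 37.3%), the highest share. L1MB supplied 45 of the 52, 86.5% (74.2 to 94.4%), against 47.4% on all other chromosomes (44.4 to 50.5%). This excess was not confined to it, since L1MB also supplied 30 of 36 on chromosome 16 (83.3%, 67.2 to 93.6%). On chromosome 21 L1MB supplied 7 of 9, with an interval of 40.0 to 97.2% that includes the 47.4%. Low shares of L1MB were found on chromosome 4, with 16 of 53 (30.2%, 18.3 to 44.3%), and on chromosome 3, with 27 of 84 (32.1%, 22.4 to 43.2%). The median distance to a start was 18.4 kb on chromosome 19 and 39.5 kb elsewhere, and median scores were 75.5 and 64.

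The strongest there were an L1MB5 peak of 343 in intron 2 of CERS1, a ceramide synthase gene, with GDF1 deposited as nearest gene, and L1MB5 and L1MB3 peaks of 311 and 262 upstream of KLF2, an endothelial transcription factor gene (chromosome 19, 16288502 to 16289419 and 16297735 to 16299150). ZNF genes were nearest for 4 of the 52. The same share over all peaks of chromosome 19 was not counted, so nothing is drawn from this. Chromosome 6 had the lowest share of L1 peaks, 42 of 434 or 9.68% (7.06 to 12.9%). For 18 of 23 chromosomes the interval of this share included the 15.1% of the whole list.

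**Figure D5:**
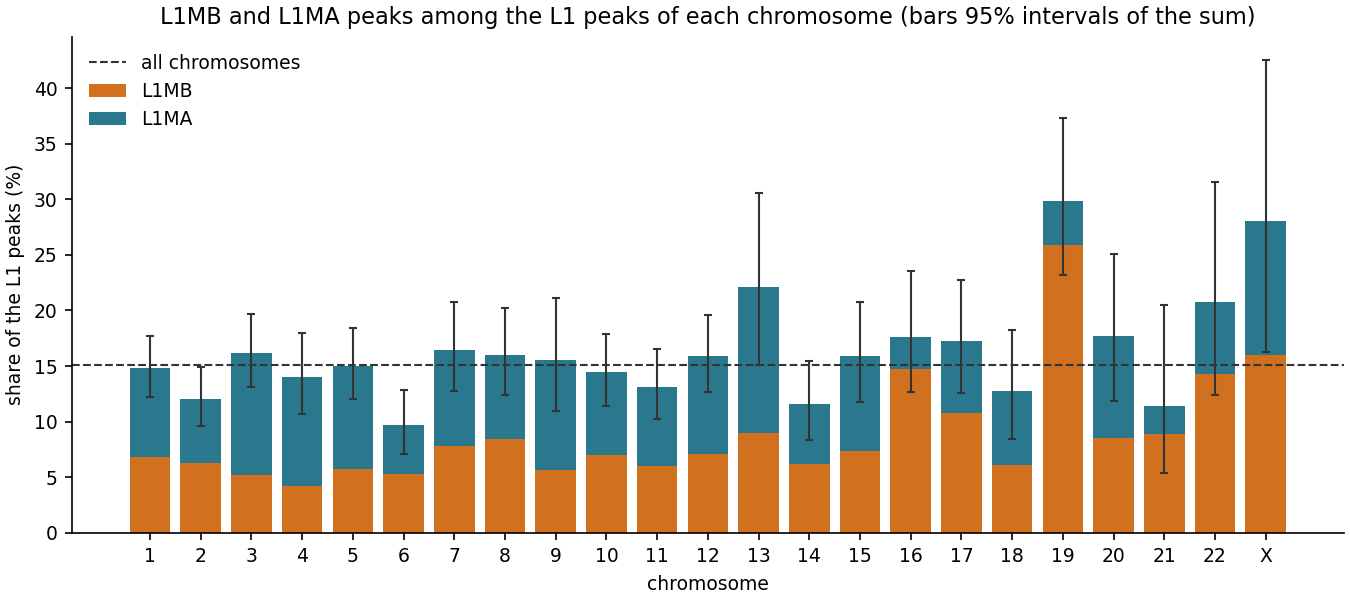
Bars give L1MB (orange) and L1MA (blue) peaks as a share (%) of the L1 peaks on each chromosome, with the 95% interval of their sum, beside the 15.1% over all chromosomes (dashed). Chromosome 19 has 29.9%, nearly all of it L1MB.

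Chromosome X had 14 such peaks, and 11 of them lay before the start of XG, at the short-arm end that X shares with the Y chromosome. This stretch held 26 peaks of all kinds, so that 42.3% were L1MA or L1MB (23.4 to 63.1%), against 3 of the 117 peaks on the rest of the chromosome (2.56%, 0.53 to 7.31%). Scores of the 11 ran from 37 to 181 with a median of 69. They include the widest peak, with CRLF2 deposited as nearest gene, the IL3RA peak and the 4 peaks in DHRSX introns. The 3 peaks on the rest of the chromosome, over L1MA10, L1MA2 and L1MB4 elements, scored 37, 53 and 78.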

How the data were processed

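An mTOR antibody was used on cross-linked MDA-MB-231 chromatin, and input chromatin served when peaks were called, per the labels' protocols. The build hg38 and the tools HOMER 4.11.1, MACS2 2.1.1.20160309, Picard 2.0.1, BWA 0.7.12 and Trimmomatic 0.36 are listed per the submitters' processing notes. Not given in the sources used here: thresholds and the handling of duplicate or multiply aligned reads, which could change the peaks over repeats. The score, positions and distance to the start site of each peak are used as deposited by the authors, and the deposited score has no stated scale.

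Names of the form name, class and family were split from the detailed annotation. Gene names, lengths and host genes came from RefSeq on GRCh38.p14, which held the nearest gene of 99.5% of the 1108 peaks. Widths count both end bases. Shares have exact Clopper-Pearson intervals, medians have intervals from binomial ranks and differences of shares have Newcombe intervals, all at 95% and for counting error only. No test was run, since there was 1 ChIP library. Pairs of peaks in the same element are not independent. Genes are named for the 15 highest scores and 5 widest peaks, the top peak of each subfamily with at least 5 peaks, up to 3 genes of each list, the 5 genes with most peaks and the 5 closest pairs. Some genes that this rule or a list holds are not reported here. Peaks within 1 kb of a start would also have been named. Other genes are said to be chosen after their values were seen, as were the details of chromosomes 19 and X. The selection of peaks and the gene lists were chosen with earlier results of these data known. Intervals and gaps were tested on simulated data. Analyses used scipy 1.17.1, numpy 2.4.6, pandas 2.3.3, matplotlib 3.10.9 and Python 3.11.15.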

Additional observations from a re-analysis of the deposited data

How the results depend on the processing

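Over 16 results and 66 alternative values, 46 stayed within the interval of the reported value. The 4 differences between L1MB and L1MA were added after the data were seen. Counting peaks within 10 kb once or leaving out chromosome 19 moved no value out of its interval. Among the 10724 peaks scoring 61 or more, L1MA and L1MB made up 5.85% of all peaks and 17.5% of L1 peaks, with a median score of 97, a median width of 448 bp and 6.70% with another within 10 kb. Among the 2147 peaks scoring 200 or more they made up 3.82% of all peaks. The 82 peaks left had a median width of 736.5 bp and a median distance of 30501 bp to a start. L1MA made up 47.6% of them, 46.3% were intronic, 53.7% intergenic, 67.1% nearest to a protein-coding gene and 2.44% near another. The L1MB minus L1MA differences there were 0.36 points for introns, 15.4 for protein-coding genes and -0.24 for the 5 kb window, whose sign reversed, with an interval of -11.0 to 9.72. The cause was not tested, and these values rest on 82 peaks. A start-site window of 5 kb gave 6.59%, a limit of 50 kb gave 76.0% protein-coding, and spacing limits of 1 and 50 kb gave 2.17% and 17.0%. Both score thresholds select on the score itself. No paired analysis was possible because there was 1 library per group. Without replicates or read counts, nothing here measures how the peaks would vary in another library.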
